A study of Mus musculus with 13 samples.

Results

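Mouse genes for 50 collagens, other matrix proteins and matrix remodelling enzymes were followed across 13 RNA-seq libraries labelled as whole liver. The members were taken by symbol from the 22048 genes of the count table. All 50 were found, each in 1 row, and all 50 were among the 13831 genes with enough counts to be tested. They comprised 18 collagen chains, 8 glycoproteins and elastic fibre proteins, 3 small leucine-rich proteoglycans, 5 laminin chains or laminin partners, 8 matrix metalloproteinases, 3 inhibitors of these, 3 cross-linking oxidases and 2 ADAMTS proteases. The libraries came from 6 control livers that were not depleted of stellate cells, 4 livers depleted of hepatic stellate cells and 3 non-depleted livers taken 72 h after partial hepatectomy, an operation in which part of the liver is cut away and the rest regrows. Males numbered 3 of 6 controls, 1 of 4 depleted livers (replicate 3) and 2 of 3 hepatectomised livers (replicates 1 and 2). The method of depletion, the time since depletion, strain, age, operation of the controls, batch and date were not given in the sources used here. The labels do not say whether each library came from a separate animal, so p-values measure the spread between these libraries.

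Stellate cells lie between hepatocytes and the sinusoidal endothelium, store vitamin A, and with portal fibroblasts are known as the main source of fibrillar collagen in the liver. Collagen chains are secreted as trimers, trimmed by proteases such as ADAMTS2, decorated by small proteoglycans and cross-linked by oxidases of the LOX family. Basement membrane components (collagen IV, laminins, nidogen) are made by several liver cell types, endothelial cells among them, and hepatocytes secrete plasma fibronectin and collagen XVIII. Metalloproteinases cleave these proteins and TIMPs inhibit the metalloproteinases. MMP8 and MMP9 are stored in the granules of neutrophils. In whole tissue, fewer cells of a type and less RNA per cell cannot be told apart.

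Depth ran from 35360991 to 42784362 counts among the controls, from 37848305 to 51008737 among the depleted livers and from 39633635 to 46228433 among the hepatectomised. Levels are CPM (counts relative to library size), scaled between libraries by TMM, and a level of 3 counts lay between 0.0588 and 0.0848 CPM scaled to library size. Fold changes are log2 values ± SE, and a gene is called where edgeR's quasi-likelihood test, with Benjamini-Hochberg adjustment over all 13831 genes, gave an adjusted p under 0.05. The stellate label held in the depleted livers as a group: 14 of 15 stellate markers fell and none rose, and their summed level was 19.6 to 105 CPM, against 239 to 650 CPM in controls. The depleted livers were not alike. Depleted replicate 4 had the highest stellate sum, 105 CPM, against 30.1, 19.6 and 40.6 CPM in replicates 1 to 3, and its Lrat level (a retinol-esterifying enzyme that defines stellate cells) was 6.36% of the control median, against 0.337% to 0.483% in the others. Control replicate 6 was the lowest control for stellate (239 CPM), endothelial (94.8 against 296 to 423 CPM) and Kupffer cell (74.8 against 395 to 609 CPM) marker sums. Hepatectomised replicate 2 was also low for endothelial (95.8 CPM) and Kupffer cell (81.4 CPM) markers. Marker sums of immune cells were higher in every depleted library than in any control: neutrophil 172 to 362 against 0.78 to 4.89 CPM, T cell 28.2 to 68.8 against 2.02 to 3.35 CPM, and monocyte 539 to 991 against 91.5 to 239 CPM. The Kupffer cell sum was too, at 1130 to 2220 against 74.8 to 609 CPM, with 4 of 8 Kupffer cell markers called higher.

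In the depleted livers most of the structural members called were lower, and the enzymes and inhibitors called went both ways. Of all 50 members, 19 fell, 7 rose and 24 were not called, and the median log2 difference was -0.97, against -0.03 over all genes tested. Among all genes tested, 15.0% were called lower and 18.9% higher. Of the 34 structural members, 15 fell and 2 rose, with a median of -1.31. Of the 16 enzymes and inhibitors, 4 fell and 5 rose, with a median of 0.42. CPM ranges of controls and depleted livers did not overlap for 15 of the 50 members, and for 28.4% of all genes tested. After hepatectomy, 5 members rose and 0 fell by edgeR's test, with 14 members and 24.3% of all genes tested at an unadjusted p under 0.05 in either direction, and 7 rose and 0 fell by DESeq2. There DESeq2 gave no adjusted p-value for some members, Timp1, Col1a1, Col1a2, Tnc, Lox and Mmp13 among them. The median log2 difference was 0.61, against -0.02 over all genes tested. Among all genes tested, 6.06% were called higher and 2.36% lower, and ranges did not overlap for 5 members and for 13.7% of all genes. Both comparisons share the control libraries. Scaling to library size alone in place of TMM moved the median of all genes to 0.08 in depleted livers and to -0.24 after hepatectomy. It called 2884 genes higher and 1471 lower in depleted livers, against 2614 and 2078 with TMM, and 626 higher and 1566 lower after hepatectomy, against 838 and 326. Of the members it called 9 higher and 16 lower in depleted livers and 3 higher and 0 lower after hepatectomy, and no called member changed direction.

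**Figure D1:**
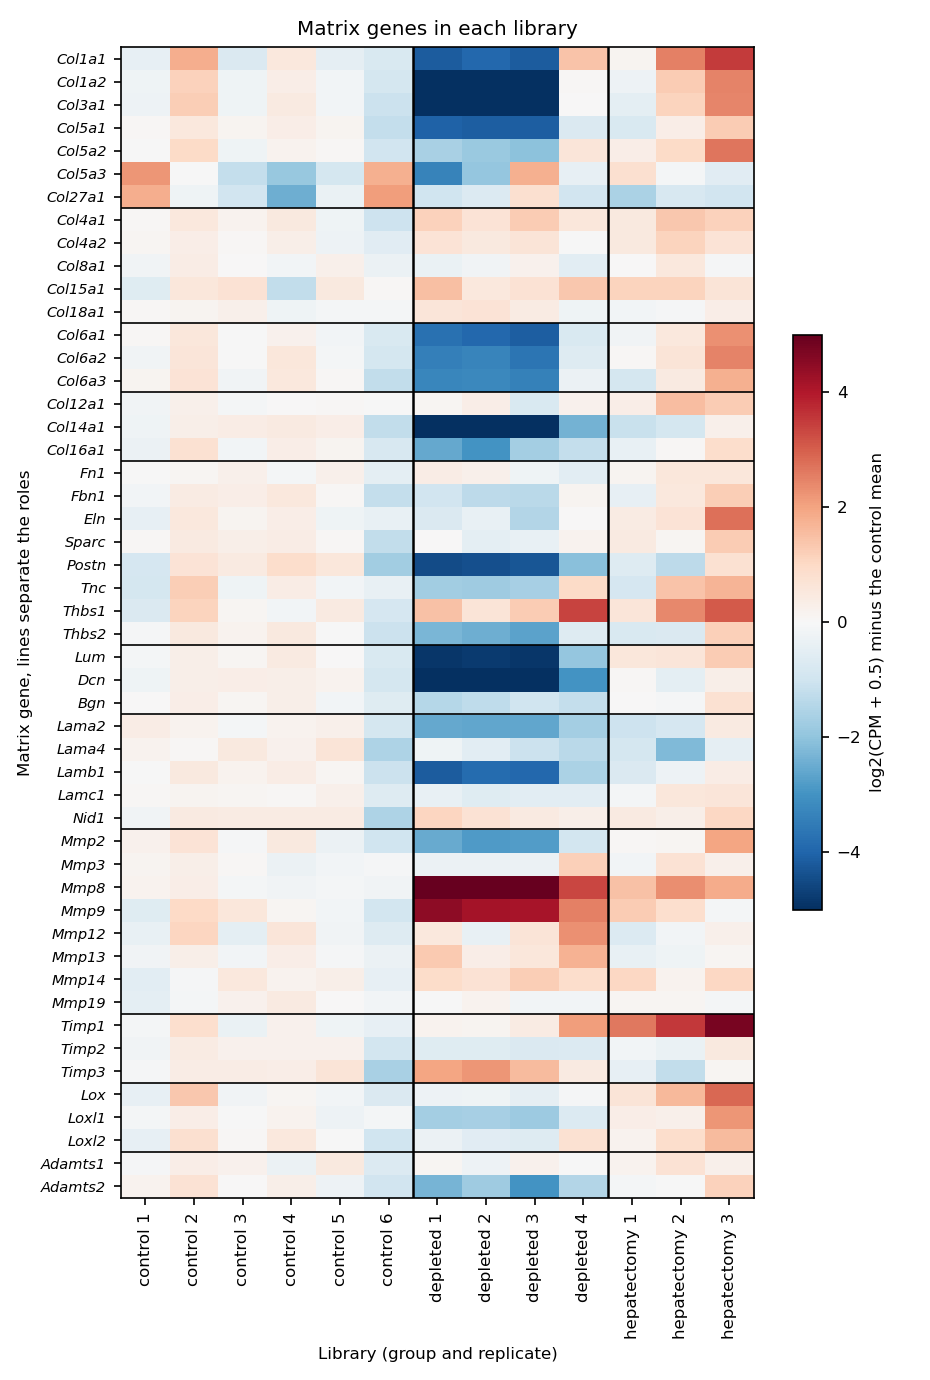
Heat map of log2(CPM + 0.5) minus the control mean for the 50 members (rows, grouped by role) in the 13 libraries (columns), with the colour scale capped at 5 in each direction. Depleted replicates 1 to 3 are low for most structural genes and replicate 4 is not, and hepatectomised replicate 3 is the highest library for many of them.

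**Figure D2:**
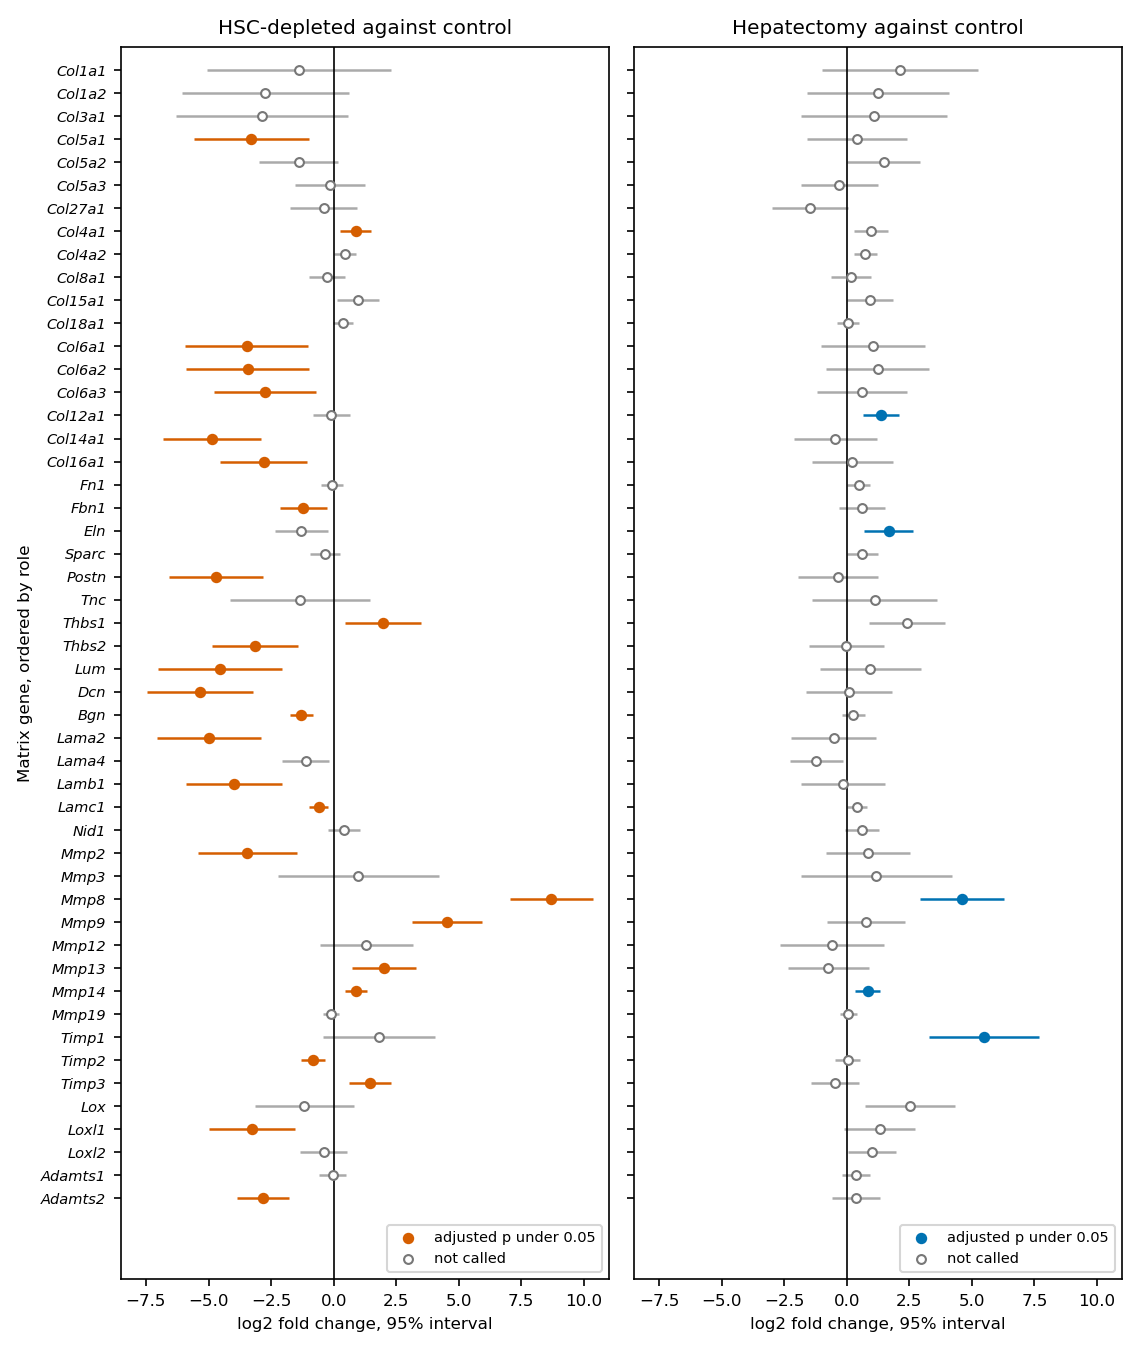
Fold changes on the log2 scale with 95% intervals for the 50 members, HSC-depleted against control livers on the left and hepatectomised against control livers on the right. Filled points have an adjusted p under 0.05: 19 lower and 7 higher on the left, and 5 higher on the right.

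RefSeq promoter windows (GRCm38.p6, 250 bases before to 50 after each annotated start) were at hand for 33 of the 50 members, and 5 are printed. The first pair belongs to Col4a1 and Col4a2, 2 chains of collagen IV, shown because both are transcribed from 1 stretch of DNA. The genes lie head to head on chromosome 8, with annotated starts 21 bases apart on opposite strands, and the windows share 78 bases (chr8:11312777-11312854), given in capitals. The windows are chr8:11312777-11313076 on the minus strand and chr8:11312555-11312854 on the plus strand, both 5′ to 3′.
Col4a1: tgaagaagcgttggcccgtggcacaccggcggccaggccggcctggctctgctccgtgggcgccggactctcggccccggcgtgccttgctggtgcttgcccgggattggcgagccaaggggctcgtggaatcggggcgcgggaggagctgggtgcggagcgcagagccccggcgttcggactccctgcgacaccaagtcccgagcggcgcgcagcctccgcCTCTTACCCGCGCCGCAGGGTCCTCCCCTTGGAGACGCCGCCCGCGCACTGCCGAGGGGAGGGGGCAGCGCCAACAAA
Col4a2: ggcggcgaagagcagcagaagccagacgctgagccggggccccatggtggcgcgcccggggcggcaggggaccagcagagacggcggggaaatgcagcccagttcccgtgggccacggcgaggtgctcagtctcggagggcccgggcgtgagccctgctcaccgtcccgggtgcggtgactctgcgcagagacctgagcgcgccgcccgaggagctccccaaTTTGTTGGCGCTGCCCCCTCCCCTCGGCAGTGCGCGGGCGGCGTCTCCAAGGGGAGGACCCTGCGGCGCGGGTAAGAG
The other set belongs to metalloproteinases of 1 cluster on chromosome 9, all on the plus strand, shown because these neighbours differed in their calls. Mmp8 (window chr9:7558179-7558478) and Mmp13 (chr9:7272264-7272563) were called higher in the depleted livers and Mmp3 (chr9:7445572-7445871) was not. The Mmp3 interval, -2.24 to 4.21, took in the Mmp13 value of 2.01, so a difference of Mmp3 from Mmp13 was not shown. Capitals mark matches, on either strand, to TATAAA (the TATA box) and to TGANTCA (the AP-1 motif). The motifs do not overlap each other.
Mmp8: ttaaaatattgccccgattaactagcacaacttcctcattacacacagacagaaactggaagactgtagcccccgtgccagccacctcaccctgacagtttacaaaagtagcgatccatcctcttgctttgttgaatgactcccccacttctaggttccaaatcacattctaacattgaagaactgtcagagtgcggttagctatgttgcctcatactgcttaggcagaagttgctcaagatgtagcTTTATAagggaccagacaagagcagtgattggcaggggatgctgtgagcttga
Mmp13: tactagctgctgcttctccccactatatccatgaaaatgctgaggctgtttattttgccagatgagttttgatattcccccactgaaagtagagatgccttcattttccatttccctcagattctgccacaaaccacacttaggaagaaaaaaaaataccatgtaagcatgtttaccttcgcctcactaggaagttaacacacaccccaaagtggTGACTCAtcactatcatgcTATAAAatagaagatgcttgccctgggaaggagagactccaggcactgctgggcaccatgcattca
Mmp3: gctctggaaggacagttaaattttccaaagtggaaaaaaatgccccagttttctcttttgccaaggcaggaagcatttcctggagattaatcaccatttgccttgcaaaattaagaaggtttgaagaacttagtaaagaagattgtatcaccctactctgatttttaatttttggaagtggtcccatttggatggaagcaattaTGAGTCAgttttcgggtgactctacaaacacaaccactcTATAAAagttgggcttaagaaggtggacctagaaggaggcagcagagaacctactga
Mmp13 held an AP-1 match that began 35 bases before the start and a TATA match 16 bases before it, and Mmp3 held them at 46 and 7 bases. Mmp8 held a TATA match on the opposite strand, 3 bases before the start, and no AP-1 match in this window. The Mmp8 start of this window, chr9:7558429, lies upstream of the GENCODE M21 gene start, chr9:7558456, so the distance depends on the annotation. Over the 33 members with a window used, 4 held TGANTCA (Col6a1, Mmp3, Mmp12 and Mmp13), against 7.81% of all 32851 windows, and 9 held TATAAA, against 13.6%. Matches to GGGCGG, the GC box, stood in 22 of the 33, against 35.7% of windows, and matches to CCAAT in 14 of the 33, against 37.4%. The member counts are of genes, over any of their windows, while the shares are of single windows, so the units differ.

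Col1a1, Col1a2 and Col3a1, the main fibrillar collagens, were at or near 0 in 3 of the 4 depleted livers and within the control range in the fourth, where Col1a1 was above 5 of the 6 controls. Col1a1, which codes for the α1 chain of collagen I (chr11:94936224-94953042, plus strand, GRCm38), had a median of 6.48 CPM in controls (4.98 to 32.3) and 0.0214, 0.112, 0.0175 and 24.3 CPM in depleted replicates 1 to 4. The first 3 values rest on 1, 5 and 1 counts, and the fourth on 1091. Col1a2 (collagen I α2) was at 0, 0.0896, 0.0175 and 20.9 CPM against a control median of 17.9, and Col3a1 (collagen III, the fibrillar chain with the highest level per length in controls, 5.73 RPKM) at 0.257, 0.202, 0.0873 and 49.8 CPM against 43.7. Each of these groups therefore overlapped the controls through replicate 4 alone. With all 4 libraries none of the 3 genes was called (Col1a1 -1.39 ± 1.68, adjusted p = 0.566, Col1a2 -2.73 ± 1.54, adjusted p = 0.195, Col3a1 -2.87 ± 1.58, adjusted p = 0.185, edgeR). DESeq2 gave no adjusted p-value for Col1a1 or Col1a2. Without depleted replicate 4 the differences were -7.85 for Col1a1, -9.35 for Col1a2 and -8.44 for Col3a1, with adjusted p-values of 0.00131, 8.97e-05 and 8.52e-05, sizes that the few counts of the 3 libraries fix only loosely. Per-library values of Col1a1, Col1a2 and Col3a1 are shown because of that split, a choice made after their values were seen.

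Col5a1, the collagen V chain that nucleates fibrils and the only fibrillar chain of 7 called, fell by 3.30 ± 1.06 on the log2 scale in the depleted livers (adjusted p = 0.0297, edgeR's quasi-likelihood test). Its levels were 0.171, 0.134, 0.14 and 6.15 CPM in the 4 depleted libraries, against 11.6 CPM in the median control (4.35 to 15.2), so replicate 4 lay inside the control range. The Col5a1 call was lost without depleted replicate 1, 2 or 3 (-2.94, -2.93 and -2.70), with no sex term (-2.77) and with only depleted and control livers fitted (-3.23), and became -6.30 without replicate 4. Its partner Col5a2 was at 1.46, 1.16, 0.926 and 8.64 CPM against a control median of 5.58 and was not called (-1.39, adjusted p = 0.163). Without replicate 4, Col5a2 was called at -2.47 (adjusted p = 0.0061).

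Col5a3, a further collagen V chain, and Col27a1 completed the fibrillar chains. Col5a3 was at 56.3, 11.4 and 41.4 CPM in male controls 1, 2 and 6 and at 2.79 to 6.06 CPM in the 3 female controls. In depleted livers it was at 41.3 CPM in the male and at 0.707 to 8.71 CPM in the females, and after hepatectomy at 20.9 and 11 CPM in the males and 7.78 CPM in the female. In each group every male was above every female for Col5a3. The sex term of the model gave a male minus female difference of 2.63 ± 0.57 for Col5a3, which missed the threshold (unadjusted p = 0.000611, adjusted p = 0.0556, edgeR). Among all genes tested, 1.03% were called for sex. Col27a1 gave 1.71 ± 0.53 (adjusted p = 0.22). Its males were above its females in controls (13.4 to 69.9 against 2.54 to 12.4 CPM) and in depleted livers (27.9 against 7.69 to 9.61 CPM), but not after hepatectomy, with 4.88 and 8.87 CPM in the males and 7.93 CPM in the female. The sex term was examined after the values were seen. Neither gene was called in the comparisons with control, at -0.15 ± 0.64 for Col5a3 and -0.39 ± 0.61 for Col27a1 in the depleted livers.

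**Figure D3:**
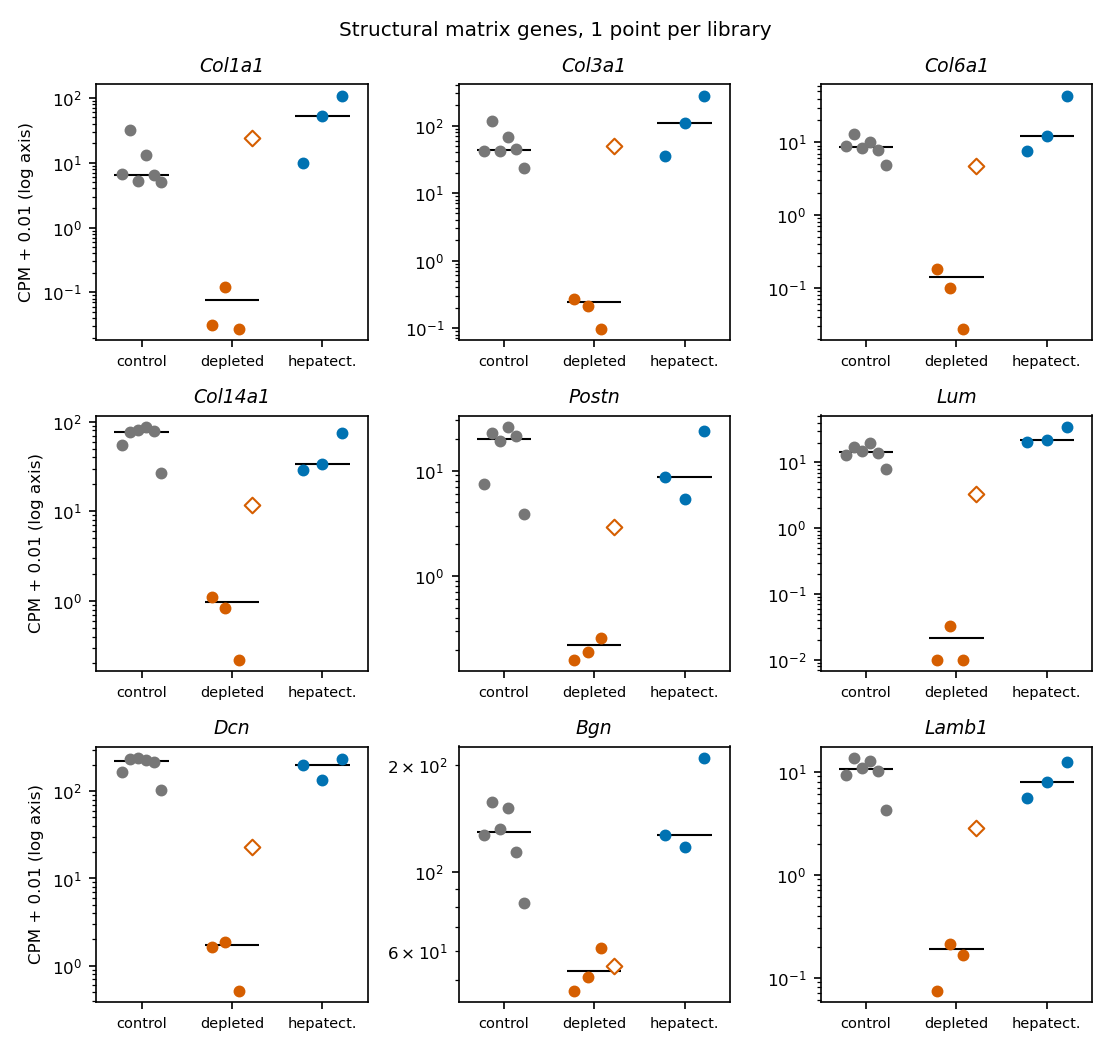
CPM + 0.01 on a log axis in each library for 9 structural members. Bars are medians, and the open diamond is depleted replicate 4: for Col1a1 and Col3a1 it lies within the control range, at 24.3 and 49.8 CPM, while for Dcn it lies at 23.2 CPM, below every control.

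Collagen VI, whose 3 chains form beaded filaments around cells, fell in all 3 chains. Col6a1 was at 0.171, 0.0896, 0.0175 and 4.72 CPM in the depleted libraries against a control median of 8.58 (4.83 to 12.9), a difference of -3.48 ± 1.14 (adjusted p = 0.0324, edgeR). Col6a2 was at 0.0857, 0.134, 0 and 3.54 CPM against 5.52 (2.97 to 9.12), a difference of -3.43 ± 1.13 (adjusted p = 0.0331). Col6a3 fell by 2.74 ± 0.93 (adjusted p = 0.0388). Only for Col6a1 did the groups not overlap, and there replicate 4 was just under the lowest control. Each of the 3 calls was lost without depleted replicate 1, 2 or 3 (lowest sizes -2.78, -2.76 and -2.22 without replicate 3, the only male), and without replicate 4 the values were -6.82 for Col6a1, -6.72 for Col6a2 and -4.68 for Col6a3. Col6a1 and Col6a2 also lost the call without hepatectomised replicate 3 (-3.25 and -3.24), and Col6a3 without control replicate 1 or 4 (-2.67 and -2.83) or hepatectomised replicate 3 (-2.57). Col6a2 missed it too without control replicate 4, at -3.56. With no sex term the 3 genes were at -2.82, -2.73 and -2.21, and with only depleted and control livers fitted at -3.23, -3.23 and -2.56, none of them called. Col6a3 was also not called with scaling to library size alone (-2.57), nor were Col6a1 (-3.51) and Col6a3 (-2.76) with no low-count filter.

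Fibril-associated collagens did not move alike. Col14a1 (collagen XIV, highest of the 3 per length in controls at 9.63 RPKM) was at 1.09, 0.829, 0.21 and 11.8 CPM in the depleted libraries against 77.7 CPM in the median control (26.8 to 87.1). All 4 lay below every control, and the difference was -4.87 ± 0.90 (adjusted p = 0.00135, edgeR), or -6.86 without replicate 4 and -4.27 without replicate 3. Col16a1 was at 0.171, 0, 0.734 and 1.27 CPM against 3.52 (1.77 to 6.35), again below every control, with a difference of -2.80 ± 0.80 (adjusted p = 0.0166), or -3.61 without replicate 4. Col12a1 (collagen XII) was at 1.84, 2.24, 0.786 and 2.0 CPM against 1.66 and was not called in the depleted livers (-0.09 ± 0.34, interval -0.83 to 0.64).

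None of the 5 basement membrane, network and short-chain collagens was called lower in the depleted livers, and 1 of them, Col4a1, rose. Col4a1 was at 87.1, 62.2, 94.7 and 57.5 CPM in depleted livers against 41.6 CPM in the median control (18.5 to 55.6). All 4 libraries were above every control, and the rise was 0.88 ± 0.28 (adjusted p = 0.0302, edgeR). The Col4a1 call was lost without control replicate 1, 3 or 5 (0.87, 0.90 and 0.82) and without depleted replicate 1 or 3 (0.81 and 0.66). With the replicate number as a block Col4a1 was not called either (0.67). Col4a2 was at 48.1, 42.3, 46.8 and 30.0 CPM against 31.9 and missed the threshold (0.46 ± 0.20, adjusted p = 0.0991). Without depleted replicate 4, Col4a2 was called at 0.58 (adjusted p = 0.039) and Col18a1 at 0.53 (adjusted p = 0.0137). After hepatectomy Col4a1 was at 54.9, 97.9 and 85.8 CPM (0.96 ± 0.31, adjusted p = 0.0747) and Col4a2 at 42.5, 64.8 and 48.6 CPM (0.74 ± 0.22, adjusted p = 0.0516), neither called by edgeR. DESeq2 called both of these higher, and Col4a2 was also called with no sex term. The exons of Col4a1 and Col4a2 overlap on opposite strands, and whether reads were counted by strand was not given in the sources used here. The per-length ratio of Col4a1 to Col4a2 ran from 0.885 to 1.96 over the 13 libraries. The endothelial marker sum was 239 to 472 CPM in depleted livers and 94.8 to 423 CPM in controls, and 3 of 10 endothelial markers were called higher, whose part in these values was not tested.

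Col18a1, the source of endostatin and the collagen with the highest level per length (137 RPKM in controls), was at 1440, 1530, 1280 and 833 CPM in depleted livers against 940 in the median control (821 to 1150), and was not called (0.38 ± 0.18, adjusted p = 0.129). Together with Fn1 it dominated the members: Fn1 took 43.9% to 56.5% and Col18a1 19.4% to 36.7% of all member counts in a library. The members' share of all counts overlapped between all 3 groups, at 0.262% to 0.432% in controls, 0.329% to 0.48% in depleted and 0.328% to 0.504% in hepatectomised livers. Without Fn1 and Col18a1 it was 0.0593% to 0.13% in controls, 0.0622% to 0.0842% in depleted and 0.0854% to 0.173% in hepatectomised livers, so that each range overlapped the controls while the depleted livers lay below the hepatectomised. Col15a1, a basement membrane collagen linked to vessels, was at 13.9, 6.94, 8.03 and 12.6 CPM against 5.72 (0.98 ± 0.39, adjusted p = 0.0745), a difference called with no sex term (1.00), with scaling to library size alone (1.12) and by DESeq2 (0.99), and Col8a1 differed by -0.28 ± 0.33.

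Of the glycoproteins and elastic fibre proteins, Postn, Thbs2 and Fbn1 fell and Thbs1 rose in the depleted livers. Postn (periostin, a matricellular protein of collagen-rich tissue) was at 0.15, 0.179, 0.245 and 2.87 CPM against 20.1 CPM in the median control (3.84 to 25.8), with no overlap (-4.71 ± 0.87, adjusted p = 0.0013, edgeR). Thbs2 was at 0.257, 0.179, 0.0699 and 1.87 CPM against 3.41 (1.23 to 4.67), with replicate 4 above the lowest control (-3.13 ± 0.79, adjusted p = 0.00887). Without replicate 4 the Postn and Thbs2 values were -6.44 and -4.62. Its paralog Thbs1, an activator of latent TGF-beta, moved the other way: 5.10, 2.71, 4.52 and 21 CPM against 1.54 (0.66 to 4.0), a rise of 1.97 ± 0.70 (adjusted p = 0.0462). The Thbs1 call rested on depleted replicate 4, without which it was 1.15 (adjusted p = 0.162), and it was also lost without control replicate 1, 3, 4, 5 or 6 (1.88, 1.86, 1.79, 1.98 and 1.87), depleted replicate 1 or 3 (2.15 and 2.17) or hepatectomised replicate 2 (1.91), and with no low-count filter (1.96). With the replicate number as a block Thbs1 was not called either (1.89).

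Fbn1 (fibrillin-1, the scaffold of elastic microfibrils) fell by 1.22 ± 0.43 (adjusted p = 0.045, edgeR), from 4.48 CPM in the median control (1.38 to 5.62) to 1.69, 1.21, 1.19 and 4.17 CPM, and lost the call without any 1 of control replicates 1 to 5, depleted replicates 1 to 3 or hepatectomised replicate 3 (-1.02 to -1.32). It was also not called with no sex term (-0.99), with only depleted and control livers fitted (-1.18) or with scaling to library size alone (-1.08). Exons of Fbn1 overlap those of Gm9913 on the opposite strand. Fn1 (fibronectin, 155 RPKM in controls) was at 2320, 2140, 1530 and 1230 CPM against 1830 (-0.06 ± 0.20, interval -0.49 to 0.36). Sparc, a collagen-binding protein, was at 75.1, 52.4, 57.1 and 82.9 CPM against 84.1 (-0.35 ± 0.28, adjusted p = 0.37). Tnc (tenascin-C, low in resting tissue) was at 0.0428, 0.0224, 0.0699 and 3.03 CPM against 1.12 and was not called (-1.33 ± 1.29), while without replicate 4 it was -4.96 and called. Eln (elastin) was at 0.878, 1.25, 0.314 and 1.80 CPM against 1.73 (-1.29 ± 0.49, adjusted p = 0.0583), and was called at -1.56 without depleted replicate 4 at -1.56 without control replicate 5 and at -1.30 by DESeq2.

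All 3 small leucine-rich proteoglycans, which bind collagen fibrils, fell, with no overlap between groups. Dcn (decorin, the third highest member per length in controls at 94.8 RPKM) was at 1.61, 1.86, 0.507 and 23.2 CPM in the depleted libraries against 223 CPM in the median control (102 to 239), a difference of -5.33 ± 0.97 (adjusted p = 0.00118, edgeR). Lum (lumican) was at 0, 0.0224, 0 and 3.30 CPM against 14.5 (8.04 to 19.4), or 0, 1, 0 and 148 counts, a difference of -4.54 ± 1.15 (adjusted p = 0.00896). Bgn (biglycan) was at 46.5, 50.9, 61.4 and 54.5 CPM against 129 (82.0 to 157), a difference of -1.29 ± 0.20 (adjusted p = 0.000431). Bgn thus kept 35.9% to 47.4% of the control median in all 4 libraries, replicate 4 in their midst, where Dcn kept 0.227% to 0.834% in replicates 1 to 3 and 10.4% in replicate 4. Without replicate 4 the values were -7.42 for Dcn, -10.59 for Lum and -1.28 for Bgn, and without depleted replicate 3 they were -4.68, -3.92 and -1.49.

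Among the laminins and nidogen, the chains parted. Lama2 (laminin α2, of mesenchymal basement membranes) was at 0.0214, 0, 0 and 0.423 CPM against 2.92 (1.14 to 3.43) and fell by 4.97 ± 0.96 on the log2 scale (adjusted p = 0.00164, edgeR). Lamb1 (laminin β1) was at 0.0643, 0.202, 0.157 and 2.85 CPM against 10.5 (4.20 to 13.5) and fell by 3.98 ± 0.88 (adjusted p = 0.00429). Both were below every control in all 4 libraries, and without replicate 4 they were at -8.22 and -6.17. Lamc1 (laminin γ1) fell less, by 0.60 ± 0.18 (adjusted p = 0.0189), from 18.2 CPM (10.8 to 20.6) to 13, 11, 11.5 and 11.8 CPM, and its call was lost without depleted replicate 2 (-0.55) and with scaling to library size alone (-0.49). Lama4, a chain of vessel walls, was not called (-1.12 ± 0.44, adjusted p = 0.0637). Lama4 was called without control replicate 6 (-1.27), which had the lowest Lama4 level of all controls, 1.44 CPM, without hepatectomised replicate 2 (-1.10), with DESeq2 (-1.11) and with the replicate number as a block (-1.39). Nid1, which links laminin to collagen IV and is the highest of these per length (3.09 RPKM in controls), was at 36.4, 28.4, 23.1 and 20.6 CPM against 22.6 (0.43 ± 0.29, adjusted p = 0.285).

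Depleted replicate 4 differed from its group by gene. In replicates 1 to 3, 19 or 20 of the 50 members were under 10% of the control median, and in replicate 4 none was. Replicate 4 held Col1a1 at 375%, Tnc at 271%, Col5a2 at 155%, Col1a2 at 117% and Col3a1 at 114% of the control median, but Dcn at 10.4%, Postn at 14.3%, Lama2 at 14.5%, Col14a1 at 15.2% and Lum at 22.7%. Of the 15 stellate markers, 14 were under 50% of the control median in the same library, from 1.3% (Vipr1) and 1.51% (Colec10) to 36.5% (Pdgfrb), 42.1% (Nes) and 44.2% (Des). The contractile genes Acta2 and Tagln were at 406% and 122%, against 12.8% to 27.5% and 10.5% to 14.5% in the other 3 depleted libraries. Myh11, a smooth muscle myosin, was at 29.7%. The summed level of the smooth muscle markers, of which 2 of 4 tested fell, was 11.8 CPM in replicate 4, 0.707 to 0.996 CPM in replicates 1 to 3 and 5.85 to 19.2 CPM in controls. The portal fibroblast sum was 36.9 CPM in replicate 4, 23.2 to 28.1 CPM in the other 3 and 23.6 to 45.0 CPM in controls. That sum includes Thy1, which was at 1040%, 943%, 2470% and 2170% of its control median (0.776 CPM) in depleted replicates 1 to 4. Of the 8 portal fibroblast markers tested, 2 rose and 4 fell, so the sum does not stand for each marker. The part of these cell types in the values of replicate 4 was not tested. Without this library, 25 members were called lower and 8 higher, and 4817 of all genes were called, against 4692 with it. The newly lower members were Col1a1, Col1a2, Col3a1, Col5a2, Eln and Tnc.

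**Figure D4:**
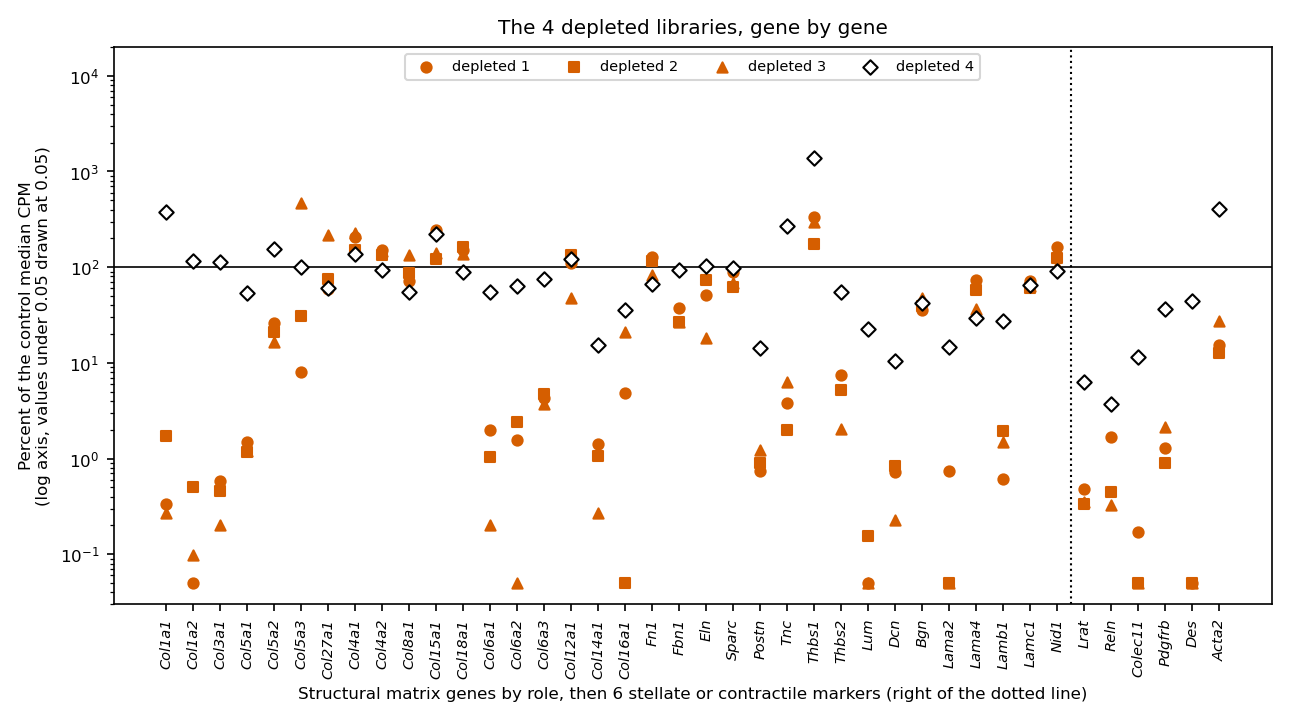
Each depleted library as a percent of the control median CPM (log axis) for the 34 structural members and 6 stellate or contractile markers. Depleted replicate 4, the open diamond, lies near or above 100% for Col1a1 (375%), Col1a2 and Col3a1 and near 10% for Dcn (10.4%), and all 4 libraries coincide for Bgn.

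Metalloproteinases gave the 3 largest rises among the members called in the depleted livers, with Mmp13 (2.01 ± 0.60) just above Thbs1 (1.97 ± 0.70). With the replicate number as a block, Thbs1 (1.89) was above Mmp13 (1.83). Mmp8, neutrophil collagenase (chr9:7558456-7568485, plus strand), was at 35.9, 29.3, 25.2 and 5.12 CPM in the depleted libraries against 0 to 0.198 CPM in controls, which rest on 5, 8, 1, 0, 1 and 0 counts. It rose by 8.70 ± 0.76 on the log2 scale (adjusted p = 9.9e-06, edgeR), or 9.34 without control replicate 2, and since the control counts are so few the size of that fold is loosely fixed. Mmp9, gelatinase B, was at 25.4, 20.6, 19.9 and 6.28 CPM against 0.663 (0.12 to 1.85), a rise of 4.54 ± 0.65 (adjusted p = 0.000235). For both genes all 4 libraries were above every control and replicate 4 was the lowest of the 4. The neutrophil marker sum was also lowest in replicate 4, at 362, 264, 353 and 172 CPM in replicates 1 to 4, and all 9 neutrophil markers tested rose. The part of neutrophils in the Mmp8 and Mmp9 values was not tested.

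Mmp14, a membrane-bound protease that activates pro-MMP2, rose by 0.89 ± 0.21 (adjusted p = 0.00527, edgeR), to 53.3, 46.3, 65.5 and 51.6 CPM from 29.1 (19.2 to 40.4), above every control, but lost the call without depleted replicate 3 (0.56, adjusted p = 0.0721). Mmp13, a collagenase, was low: 1.18, 0.358, 0.507 and 1.78 CPM (55, 16, 29 and 80 counts) against 0.141 (0.06 to 0.36), a rise of 2.01 ± 0.60 (adjusted p = 0.0195). Depleted replicate 2 lay within the Mmp13 control range, and the call was lost without control replicate 3 or 5 (1.78 and 1.85) or depleted replicate 3 (2.14). With the replicate number as a block Mmp13 was not called either (1.83). Mmp2, gelatinase A, was the 1 metalloproteinase that fell: 0.171, 0.0448, 0.0699 and 1.58 CPM against 3.61 (1.47 to 5.68), a difference of -3.46 ± 0.91 (adjusted p = 0.0112). Mmp2 was at -5.38 without depleted replicate 4 and missed the threshold without replicate 3 (-2.97, adjusted p = 0.0528). Mmp2 fell, while Mmp14, its activator, rose.

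Mmp19 had the highest level per length of the metalloproteinases, 26.8 RPKM in controls, and did not differ detectably in either comparison (-0.09 ± 0.15, interval -0.41 to 0.22, in depleted livers, and 0.06 ± 0.16, interval -0.29 to 0.40, after hepatectomy). Mmp12, the macrophage elastase, was at 0.943, 0.269, 1.05 and 4.39 CPM against 0.333 (1.30 ± 0.86, adjusted p = 0.271). Mmp3, stromelysin 1, had 0 counts in depleted replicates 1 to 3 and 40 in replicate 4, against 0 to 10 in controls (0.99 ± 1.48, adjusted p = 0.649). Exons of Mmp12 and Mmp19 overlap those of Mmp1b and Tmem198b on the opposite strand.

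Of the 3 inhibitors, Timp3 rose, Timp2 fell and Timp1 was not called in the depleted livers. Timp3, the matrix-bound TIMP and, with 3.66 RPKM, the highest of them per length in controls, was at 106, 126, 80.4 and 36.3 CPM in depleted livers against 34.1 CPM (8.31 to 42.0), a rise of 1.45 ± 0.39 (adjusted p = 0.0123, edgeR). Replicate 4 lay within the control range, and without depleted replicate 3 Timp3 was not called (1.25, adjusted p = 0.0918). Its exons overlap those of Syn3 on the opposite strand. Timp2 fell by 0.81 ± 0.22 (adjusted p = 0.0119), to 8.72, 8.74, 8.10 and 8.29 CPM from 15.7 (7.02 to 18.2), with control replicate 6 alone below the depleted libraries. Timp1, the inducible TIMP of injury, was at 0.236, 0.224, 0.384 and 2.32 CPM against 0.0887 (0 to 0.667) and was not called (1.81 ± 1.03, adjusted p = 0.201), though it was called without control replicate 2 (2.82).

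Of the cross-linking oxidases, Loxl1, which cross-links elastin, was at 0.0643, 0.0672, 0.0175 and 0.624 CPM against 1.23 (1.01 to 1.80), below every control in all 4 depleted libraries, and fell by 3.27 ± 0.79 (adjusted p = 0.00634, edgeR), or 4.93 without replicate 4. Lox was not called (-1.18 ± 0.91), nor was Loxl2, the highest of the 3 per length in controls at 0.614 RPKM (-0.40 ± 0.44). Adamts2, the procollagen N-proteinase, was at 0.835, 1.43, 0.349 and 1.94 CPM against 6.62 (2.97 to 10.4) and fell by 2.83 ± 0.48 (adjusted p = 0.000716), with no overlap. Adamts1, a versican-cleaving protease, was at 8.83, 6.83, 9.62 and 8.15 CPM against 8.76 (-0.04 ± 0.24, interval -0.57 to 0.48).

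**Figure D5:**
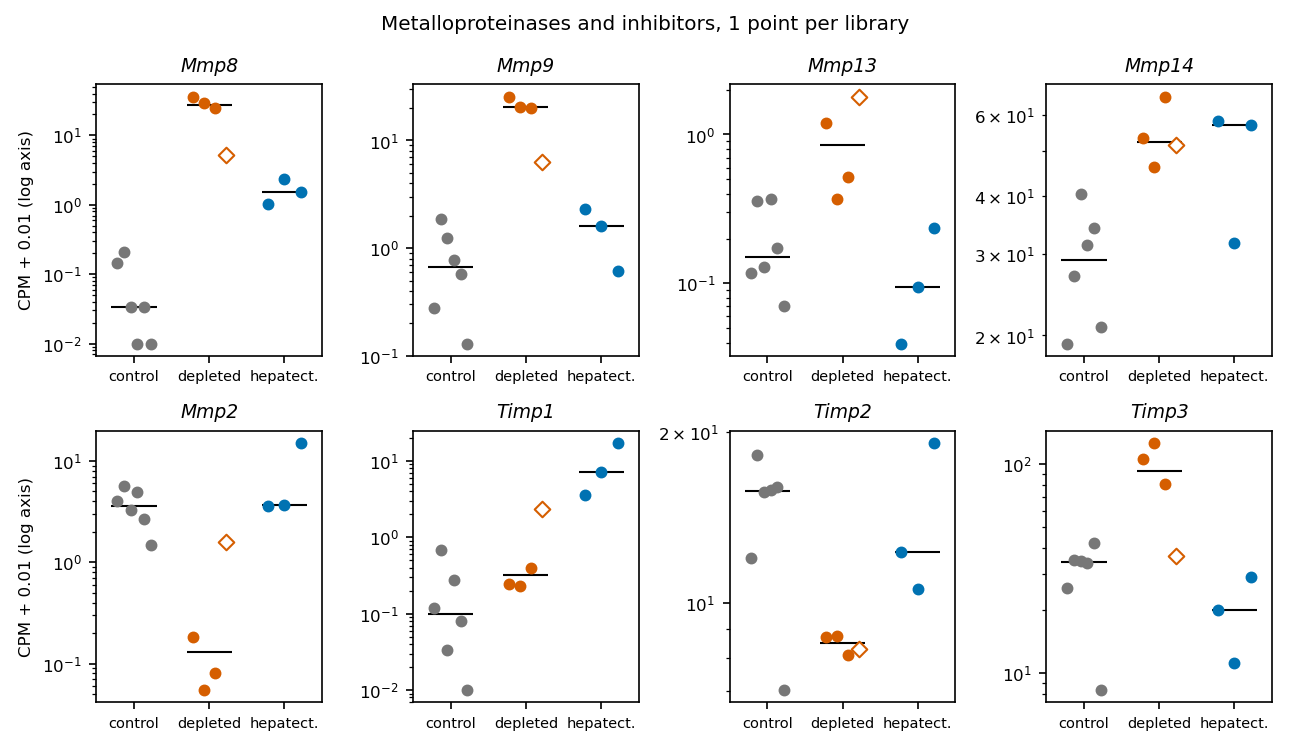
CPM + 0.01 on a log axis in each library for 5 metalloproteinases and 3 inhibitors, with medians as bars and depleted replicate 4 as the open diamond. Mmp8 and Mmp9 are highest in the depleted libraries, while Timp1 is highest in the hepatectomised ones, at 3.62 to 17.0 CPM.

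After hepatectomy Timp1, Mmp8, Eln, Col12a1 and Mmp14 rose, Timp1 the most. Timp1 (chrX:20870166-20874735, plus strand) was at 3.62, 7.19 and 17.0 CPM in the 3 libraries, above every control (0 to 0.667 CPM, from 4, 27, 1, 12, 3 and 0 counts), a rise of 5.49 ± 1.01 (adjusted p = 0.00812, edgeR). The Timp1 value was 6.84 without control replicate 2 and 4.70 without hepatectomised replicate 3. The per-length ratio of Timp1 to Timp3 was 1.64 to 5.88 in hepatectomised livers, 0.0163 to 0.586 in depleted livers and 0 to 0.176 in controls. Mmp8 was at 1.03, 2.33 and 1.52 CPM and rose by 4.60 ± 0.77 (adjusted p = 0.00474), or 5.35 without control replicate 2. The neutrophil marker sum was 18.6 to 34.2 CPM in these libraries, with 7 of 9 markers called higher, and its part was not tested.

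The other 3 members called after hepatectomy were smaller in size, and their calls changed with the libraries fitted. Col12a1 was at 2.20, 5.78 and 4.71 CPM, above every control (1.39 to 2.08 CPM), a rise of 1.38 ± 0.33 (adjusted p = 0.0239, edgeR). Its call was lost without control replicate 1 (1.36) or hepatectomised replicate 2 or 3 (0.96 and 1.43). Eln was at 2.53, 3.14 and 14.6 CPM against 1.73 (1.21 to 2.77), a rise of 1.67 ± 0.46 (adjusted p = 0.0416) that was 0.95 without hepatectomised replicate 3 and was also not called without control replicate 1, 3, 4, 5 or 6 (1.47 to 1.66), depleted replicate 1 or 2 (1.66 and 1.67) or hepatectomised replicate 2 (1.87). Mmp14 was at 58.0, 31.7 and 57.0 CPM against 29.1, a rise of 0.83 ± 0.23 (adjusted p = 0.0414). Mmp14 was not called without any 1 of control replicates 1, 2, 4, 5 and 6, depleted replicate 1 or hepatectomised replicates 1 and 3 (0.61 to 0.86). With the replicate number as a block, Timp1 and Mmp8 alone were called, and Col12a1 (1.37), Eln (1.58) and Mmp14 (0.75) had adjusted p-values of 0.0628, 0.136 and 0.115. Mmp14 was also not called with no sex term (0.76), Eln with only the 2 groups fitted (1.74), and neither with scaling to library size alone (0.61 and 1.45).

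Among the other members the 3 hepatectomised libraries spread widely. Replicate 3 held 25 of 50 members at over 200% of the control median, replicate 2 held 13 and replicate 1 held 5. Col1a1 was at 9.88, 52.8 and 106 CPM (2.12 ± 1.43, adjusted p = 0.394, edgeR), Col3a1 at 35.4, 108 and 273 CPM (1.08 ± 1.34, adjusted p = 0.667) and Lox at 0.882, 2.19 and 5.96 CPM (2.53 ± 0.83, adjusted p = 0.0826). Thbs1 was at 2.67, 10.3 and 16.6 CPM (2.42 ± 0.70, adjusted p = 0.0521), and was called with no sex term, with only the groups compared and by DESeq2. Without control replicate 2, Lox (3.96), Loxl2 (1.46) and Thbs1 (3.19) were called, and Thbs1 (2.85) and Col4a2 (0.87) were called without hepatectomised replicate 1. Col4a2 (0.81) was called without control replicate 4, and Thbs1 (2.42) without depleted replicate 2. Without depleted replicate 4, which enters the shared estimate of the spread, Col4a2 (0.75), Thbs1 (2.44) and Lum (0.88) were called as well, 8 members in all. Dcn was at 200, 135 and 231 CPM (0.10 ± 0.79), Bgn at 127, 118 and 209 CPM (0.26 ± 0.21) and Col14a1 at 29.0, 33.6 and 75.5 CPM (-0.47 ± 0.76), none of them called. Mesothelial markers moved with the group: 5 of 6 rose, and their sum was 9.04 to 49.0 CPM, highest in replicate 3, against 1.05 to 4.55 CPM in controls, which was not tested as a source of the matrix values.

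Set directly against the hepatectomised livers, the depleted livers had 25 members lower and 4 higher, with a median of -1.51, against -0.05 over all genes. Among all genes tested, 10.1% were called lower and 13.3% higher. The 4 higher members were Mmp8 (4.10 ± 0.78, adjusted p = 0.00298, edgeR), Mmp9 (3.77 ± 0.86, adjusted p = 0.00812), Mmp13 (2.75 ± 0.79, adjusted p = 0.0249) and Timp3 (1.94 ± 0.50, adjusted p = 0.0155), each above every hepatectomised library. Lower members took in all 3 chains of collagen VI, all 3 fibril-associated collagens and all 3 small proteoglycans, with Lum at -5.47 ± 1.26 (adjusted p = 0.00863) the largest. Without hepatectomised replicate 3 the calls of Col6a1, Col6a2, Col6a3, Col12a1 and Col16a1 were lost, and without depleted replicate 3 those of all of these but Col6a2. Col6a3, Col12a1 and Col16a1 also lost theirs with only these groups fitted. Lum was at -11.47 without depleted replicate 4 and was not called with only these groups fitted (-6.35). Timp1 (-3.68 ± 1.08, adjusted p = 0.0282) and Lox (-3.71 ± 0.98, adjusted p = 0.0165), not called between depleted and control livers, were called here. Without depleted replicate 3 the calls of Mmp13 (2.87), Timp3 (1.72), Timp1 (-3.39) and Lox (-3.50) were lost, and without hepatectomised replicate 3 so were those of Mmp13 (3.47), Timp3 (2.09), Timp1 (-2.58) and Lox (-2.34), while Mmp9 was at 3.18. Timp1 was also not called without depleted replicate 1 or 2 (-3.39 each), Timp3 without hepatectomised replicate 2 (1.73), and Mmp13 without hepatectomised replicate 1 or 2 (2.45 and 2.75), with only these groups fitted (2.59) or with the replicate block (2.52). The number called lower was 12 without depleted replicate 3 and 8 without hepatectomised replicate 3, and the number called higher was 2 without either of these or without hepatectomised replicate 2.

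Genes that fold, bind and cut the matrix were taken as 5 further lists, whose counts stand against 18.9% of all genes tested called higher and 15.0% lower in the depleted livers, and 6.06% and 2.36% after hepatectomy. Shares of a list near these are not results about the list. Of 21 tested genes for collagen folding and processing, 2 rose and 3 fell in the depleted livers, and 3 rose and 0 fell after hepatectomy. The falls were P3h3 (-2.71 ± 0.32) and P3h4 (-2.29 ± 0.38), of the prolyl 3-hydroxylase family, and Pcolce (-1.41 ± 0.38), an enhancer of procollagen C-proteinase. After hepatectomy Serpinh1, the collagen chaperone HSP47, rose by 1.32 ± 0.35, Bmp1, the C-proteinase, by 0.66 ± 0.14 and P3h1 by 0.62 ± 0.16. Of 21 matrix receptors, 5 rose and 2 fell in the depleted livers, and 5 rose and 0 fell after hepatectomy. Ddr2, the fibrillar collagen receptor of mesenchymal cells, was at -4.89 ± 0.72 and Itga8 at -2.55 ± 0.47, while Itga2, a subunit of a collagen-binding integrin, rose by 3.46 ± 0.80 in the depleted livers and by 3.92 ± 0.85 after hepatectomy. Ddr1, the epithelial counterpart of Ddr2, rose by 1.61 ± 0.39 and Itgb3 by 1.07 ± 0.29 after hepatectomy. These calls have adjusted p-values under 0.05 in edgeR's test.

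The same shares of all genes apply to the other 3 lists (18.9% higher and 15.0% lower in depleted livers, 6.06% and 2.36% after hepatectomy). Of 22 genes of the plasminogen system and other proteolysis, 5 rose and 8 fell in the depleted livers, and 3 rose and 0 fell after hepatectomy. Mmp7 was at 5.74 ± 0.63 and Adamts5 at -3.77 ± 0.43 in the depleted livers. After hepatectomy Adamts4 was at 2.37 ± 0.47 and Serpinf2 at 0.58 ± 0.14. Of 34 other structural genes, 13 fell and 1 rose in the depleted livers, with a median of -0.87, and 3 rose and 0 fell after hepatectomy. Lama1 was at -5.72 ± 0.95 and Dpt (dermatopontin) at -4.51 ± 1.14, and the 1 rise was Vcan, the proteoglycan versican, at 4.06 ± 0.60. Vcan also rose after hepatectomy (2.65 ± 0.59), with Fbln2 (1.38 ± 0.30) and Vtn (0.87 ± 0.15). Ecm1 stands in both this list and the stellate markers, and Dpt, Mfap4 and Fbln2 also stand among the portal fibroblast markers, of which 2 rose and 4 fell in the depleted livers. Of 13 regulators linked to TGF-beta, 4 rose and 2 fell in the depleted livers, with Ltbp4 at -4.63 ± 0.51, Ccn2 at 2.47 ± 0.40 and Tgfb1 at 1.72 ± 0.35, and Ccn2 alone rose after hepatectomy (1.61 ± 0.43). All of these calls have adjusted p-values under 0.05 in edgeR's test.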

How the data were processed

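Total RNA of the 13 liver samples was taken up in TRIzol, and stranded mRNA libraries were made from 500 ng each and run over 2 flowcell lanes, per the labels' protocols. The authors deposited raw read counts per gene with gene lengths in bases. STAR 2.7.1a, SAMtools 1.15.1, featureCounts 1.6.4 and build mm10 are named in the submitters' processing notes. The annotation release and the treatment of strand and of reads with several positions were not given in the sources used here. Symbols and GRCm38 coordinates came from GENCODE M21, which matched 21818 of 22048 IDs. No per-sample column was left unused.

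Groups and sexes came from the labels. Genes were filtered with filterByExpr, scaled by TMM and fitted in edgeR 4.0.16 (R 4.3.3) for quasi-likelihood F-tests, with group and sex as terms over all 13 libraries and Benjamini-Hochberg adjustment over 13831 genes. Tests were two-sided. The common biological coefficient of variation was 31.39%. SE is the log2 fold change over the square root of F. RPKM is TMM-scaled CPM per kilobase of the deposited gene length. Reads carried no molecular identifiers, so floors cover counting error only. No 2 libraries of a group agreed within sampling noise (lowest median chi-square 4.602, against 0.455 for sampling alone).

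Alternatives were no sex term, only the groups compared, RLE scaling, library size alone, no low-count filter, DESeq2 1.42.0, a replicate block and each library left out. Leaving out control replicate 6 and depleted replicate 4 together was chosen after seeing the data. Same-numbered depleted and control libraries did not all deviate together, with or without sex removed. For hepatectomised and control livers r was 0.229, 0.107 and 0.523, where each pair shares a sex, and 0.0836, -0.191 and -0.048 with sex removed, so blocked results stand beside the members called after hepatectomy. None are given for the members not called there or for the genes of the other lists. With the block, 632 of all genes were called after hepatectomy, against 1164 without it.

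The members and the other lists were chosen with earlier results of these data known. All members could be named. The rule for per-library values took the members called against control with the largest rises and falls of each role, at most 2 per direction and comparison, and the member of each role with the highest level per length. Those of other members (Col1a1, Col1a2, Col5a2, Col5a3, Col4a2, Col15a1, Fbn1, Sparc, Tnc, Eln, Lox, Mmp3, Mmp12 and Timp1 in the depleted livers among them) were added after their values were seen. At most 3 called genes were named from each other list and comparison. Ctgf and Trac, the symbols on 2 of the lists, matched no row, and Ccn2 was used for the first.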

Additional observations from a re-analysis of the deposited data

Results flagged for a closer look

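Single libraries stood apart from the rest of their group by Dixon's criterion in 28 of the 100 sets of 4 or 6 libraries examined (50 members in controls and in depleted livers). For normally distributed values the criterion flags about 1 in 20, or about 5. The members share the same libraries and the CPM values are skewed, some of them at 0, so 5 is not a chance baseline for the 28. Of these, 23 were depleted replicate 4, each time the highest of the 4 depleted libraries. Its fibrillar collagen levels were 24.3 CPM for Col1a1, 20.9 for Col1a2, 49.8 for Col3a1, 6.15 for Col5a1 and 8.64 for Col5a2. Its collagen VI levels were 4.72 CPM for Col6a1, 3.54 for Col6a2 and 6.35 for Col6a3, and Col14a1 stood at 11.8 CPM. Among glycoproteins it had 4.17 CPM of Fbn1, 2.87 of Postn, 3.03 of Tnc, 21 of Thbs1 and 1.87 of Thbs2. The small proteoglycans Lum and Dcn were at 3.30 and 23.2 CPM, and the laminin chains Lama2 and Lamb1 at 0.423 and 2.85 CPM. Among the enzymes and inhibitors it had 1.58 CPM of Mmp2, 0.891 of Mmp3, 2.32 of Timp1, 0.624 of Loxl1 and 5.41 of Loxl2. Its stellate marker sum was 105 CPM, the highest of the depleted libraries.

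The other 5 were Col1a1 (32.3 CPM) and Lox (1.73 CPM), high in control replicate 2, Sparc (30.7 CPM) and Lamc1 (10.8 CPM), low in control replicate 6, and Col27a1 (27.9 CPM), high in depleted replicate 3, the male of its group.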

How the results depend on the processing

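Under the alternatives tried no called member changed direction. Members that stayed called under all of them numbered 14 of 26 in depleted against control livers, 2 of 5 after hepatectomy (Mmp8, and Timp1, for which DESeq2 gave no p-value) and 9 of 29 in depleted against hepatectomised livers. The number called higher in depleted against control livers was 4 with a replicate block, which ended the calls of Col4a1 (0.67), Thbs1 (1.89) and Mmp13 (1.83), and 2 to 8 with 1 library left out. The number lower there, 19, was 14 with no sex term, 14 with only the groups compared, 20 with the block and 13 to 25 with 1 library left out (13 without depleted replicate 2 or 3). After hepatectomy the number higher was 3 with scaling to library size alone, 2 with a replicate block and 2 to 8 with 1 library left out. Leaving out both control replicate 6 and depleted replicate 4 gave 1 member lower after hepatectomy, Lama4 (-1.41). In depleted against hepatectomised livers, 2 to 4 members were higher and 8 to 29 lower with 1 library left out. For those livers, library size alone moved the median of all genes from -0.05 to 0.27 and called 3102 genes higher and 610 lower, against 1837 and 1399 with TMM. Calls over all genes in depleted against control livers were 4692, and 2960 without depleted replicate 3. In depleted against hepatectomised livers they were 3236, and 2105 with only those groups fitted and 1709 without depleted replicate 3. After hepatectomy they were 1164, but 2192 with library size alone, 1926 with DESeq2, 632 with the replicate block and 483 to 742 without control replicate 1 or 2 or hepatectomised replicate 2. Same-numbered depleted and control libraries share only a number: their r was -0.259, -0.192, -0.34 and 0.0729, and, since 3 of the 4 pairs differ in sex, 0.0673, -0.0981, 0.416 and 0.0811 with sex removed, when depleted replicates 1 and 3 correlated best with their own number and replicates 2 and 4 with control replicate 6 (0.162 and 0.197). Depth limits the folds of members with few counts in controls (Mmp8, Mmp3, Timp1) or in depleted replicates 1 to 3 (among them Lum, Lama2, Col1a1 and Col1a2).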

Other observations

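Collagen I is a trimer of 2 α1 chains and 1 α2 chain, and the per-length ratio of Col1a1 to Col1a2 mRNA ran from 0.562 to 1.33 in the 6 controls. It was 2.15 in depleted replicate 4, 1.07, 2.0 and 1.69 in the 3 hepatectomised livers, and rested on 0 to 5 counts a gene in the other depleted livers. Col1a1 relative to Col3a1 ran from 0.182 to 0.417 in controls, was 0.73 in depleted replicate 4, and was 0.417, 0.734 and 0.583 in the hepatectomised livers. These ratios were set side by side after the values were seen and were not tested.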
